A study of Mus musculus with 5 samples.

Results

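The heat shock and DnaJ chaperones were taken as every mouse gene whose symbol begins with Hspa, Hspb, Hspd, Hspe, Hsph, Hsp90, Dnaja, Dnajb or Dnajc followed by a digit or a letter, with pseudogene names left out. This rule found 75 of the 32285 annotated genes. They were measured in single-cell RNA libraries of mouse duodenum, jejunum, ileum, colon and rectum, with 1 library per segment and no replicate of any segment. Live cells, sorted as negative for propidium iodide, went into 10x Genomics droplets, and each library is labelled as holding epithelial, mesenchymal and immune cells. The strain, sex and age of the mice, and how many were used, are not given in the sources used here. Comparisons between cell classes below use the 5 segments in place of replicates, with the library as a term, so a p-value reads a difference against the scatter of these 5 libraries. A difference between segments had no replicate check and was not tested.

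Chaperones bind proteins that are unfolded and help them fold, move or be degraded. Hsp70 proteins (Hspa) bind exposed stretches of a client in a cycle driven by ATP, DnaJ proteins bring clients and trigger that cycle, Hsp110 proteins (Hsph, Hspa4) exchange the nucleotide, Hsp90 proteins finish the maturation of kinases and receptors, and small heat shock proteins (Hspb) hold unfolded clients without ATP. Most members are made all the time, while a smaller group is switched on by heat shock factor 1 when proteins unfold, and another set serves the endoplasmic reticulum, where secretory cells fold what they export. Stress-induced members also respond to the handling of tissue and to enzymes used to free its cells. The members were therefore divided by textbook role into 8 stress-induced cytosolic and nuclear genes (Hspa1a, Hspa1b, Hsph1, Hsp90aa1, Dnajb1, Dnaja1, Hspb1 and Dnajb4), 4 constitutive cytosolic genes, 14 genes of the endoplasmic reticulum, 10 mitochondrial genes, 16 other constitutive genes, 21 tissue-restricted genes and 2 binding partners.

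The libraries held 2884 to 4355 cell barcodes and 41953568 to 65546664 unique molecular identifiers (UMIs) each. After filtering, 11922 cells were kept, with a median of 5059 to 9767 UMIs per cell and library. They were clustered without the chaperone genes and named from marker lists, so the classes are rebuilt here and may differ from those of the study. Kept cells comprised 4913 epithelial, 6281 immune, 542 stromal (fibroblast-like, PDGFRA-high fibroblast-like, trophocyte-like and smooth muscle-like) and 132 endothelial cells, and 54 cells stayed unnamed. Stromal cells were few in the small intestine, with 50 in the duodenum, 12 in the jejunum and 22 in the ileum against 173 in the colon and 285 in the rectum. Of 16505 distinct barcodes 30 occurred in more than 1 library. Levels are given as CPM, a gene's share of all UMIs of a class in a library scaled to counts per 1000000, always in the order duodenum, jejunum, ileum, colon and rectum. Fold changes come from edgeR on counts summed per class and library, scaled by TMM factors, and a gene was called at a Benjamini-Hochberg adjusted p under 0.05 over all genes tested.

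The DNA just before the genes was read for the repeats that control the stress response. Heat shock factor 1 binds inverted repeats of the unit GAA, and the sequences below are printed because they hold such repeats in the members the results turn on. Capitals mark matches to a pair of units (GAANNTTC or TTCNNGAA) or, for Hspe1, to a run of units (GAANNTTCNNGAA or TTCNNGAANNTTC). All come from RefSeq on the build GRCm38.p6 and read 5′ to 3′ on the gene's strand.
Hspa1a, 150 bases before the start, chr17:34972157-34972306, minus strand: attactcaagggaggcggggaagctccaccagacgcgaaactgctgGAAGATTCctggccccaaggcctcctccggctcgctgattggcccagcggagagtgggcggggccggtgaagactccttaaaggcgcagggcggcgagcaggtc
Hspa1b, 150 bases before the start, chr17:34959239-34959388, minus strand: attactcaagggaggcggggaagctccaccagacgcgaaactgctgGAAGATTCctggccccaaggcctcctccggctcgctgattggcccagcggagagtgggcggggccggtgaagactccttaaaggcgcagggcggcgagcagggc
Hspe1, positions -95 to -66 before the start, chr1:55088053-55088082, plus strand: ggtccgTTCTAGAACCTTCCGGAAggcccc
Hspb1, positions -130 to -81 before the start, chr5:135887789-135887838, plus strand: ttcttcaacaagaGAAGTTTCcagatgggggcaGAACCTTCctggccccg

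The Hspa1a and Hspa1b stretches differed at 1 of 150 bases, and both genes carried GAAGATTC at position -104. Their transcripts are near-identical too, so how reads were shared between them is uncertain and each level is read with that limit. Hspe1 and Hspd1, the mitochondrial Hsp10 and Hsp60, lie head to head, with 215 bases between the Hspe1 start and the nearer Hspd1 start in the table, and the run of units printed for Hspe1 lies in that stretch. In the 300-base windows from 250 bases before to 50 after a start, 60 of the 75 members were found. The pair of units, read on both strands, stood in 6 of 7 stress-induced members, 1 of 12 of the endoplasmic reticulum, 2 of 7 mitochondrial, 3 of 13 other constitutive and 4 of 17 tissue-restricted ones, and in 15.1% of all 32851 windows. The longer run, which contains the pair, stood in 4 of 60 members (Hspd1, Hspe1, Hsph1 and Dnajb6) and in 0.603% of all windows. The Hspd1 match is the Hspe1 stretch read on the other strand, so 1 site stands for both genes, also among the mitochondrial pairs. A member was counted if any of its windows matched, while the shares over all were taken by window. A match describes letters in a window and is not a measured binding site.

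Of the 75 members 73 had at least 1 UMI in the kept cells, and together they made up 1.12% of all UMIs. Dnajc5g and Dnajb8 had no UMI, and 11 members, all tissue-restricted, had fewer than 100. Ranks of classes by mean level cover those with at least 10 cells in 3 or more libraries, which leaves out smooth muscle-like, Paneth-like, tuft-like and blood endothelial-like cells. Hspa8, the constitutive Hsp70 that also strips clathrin from vesicles, was highest in crypt-like cells at 3223 ± 299 CPM (SD, n = 5 libraries) and lowest in plasma-like cells at 454 CPM. Hsp90ab1, the constitutive Hsp90, reached 3357 ± 435 CPM in crypt-like cells as well. Hsp90b1, the Hsp90 of the endoplasmic reticulum also called Grp94, reached 3302 ± 984 CPM in plasma-like cells, above 1577 CPM in fibroblast-like cells, the class with the next highest mean. Hspa5 (BiP), the Hsp70 of that compartment, was highest in fibroblast-like cells at 2139 ± 183 CPM. Hspd1 and Hspe1 had their highest means in crypt-like cells, at 1254 ± 391 and 1173 ± 334 CPM. For Hspa8, Hsp90ab1, Hspa5, Hspd1 and Hspe1 the libraries of the highest class overlapped those of the next one, enteroendocrine-like cells for Hspa8 (2559 CPM), Hsp90ab1 and Hspd1, trophocyte-like cells for Hspa5 (2089 CPM) and B-like cells for Hspe1. For Hsp90b1 they did not overlap.

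**Figure D1:**
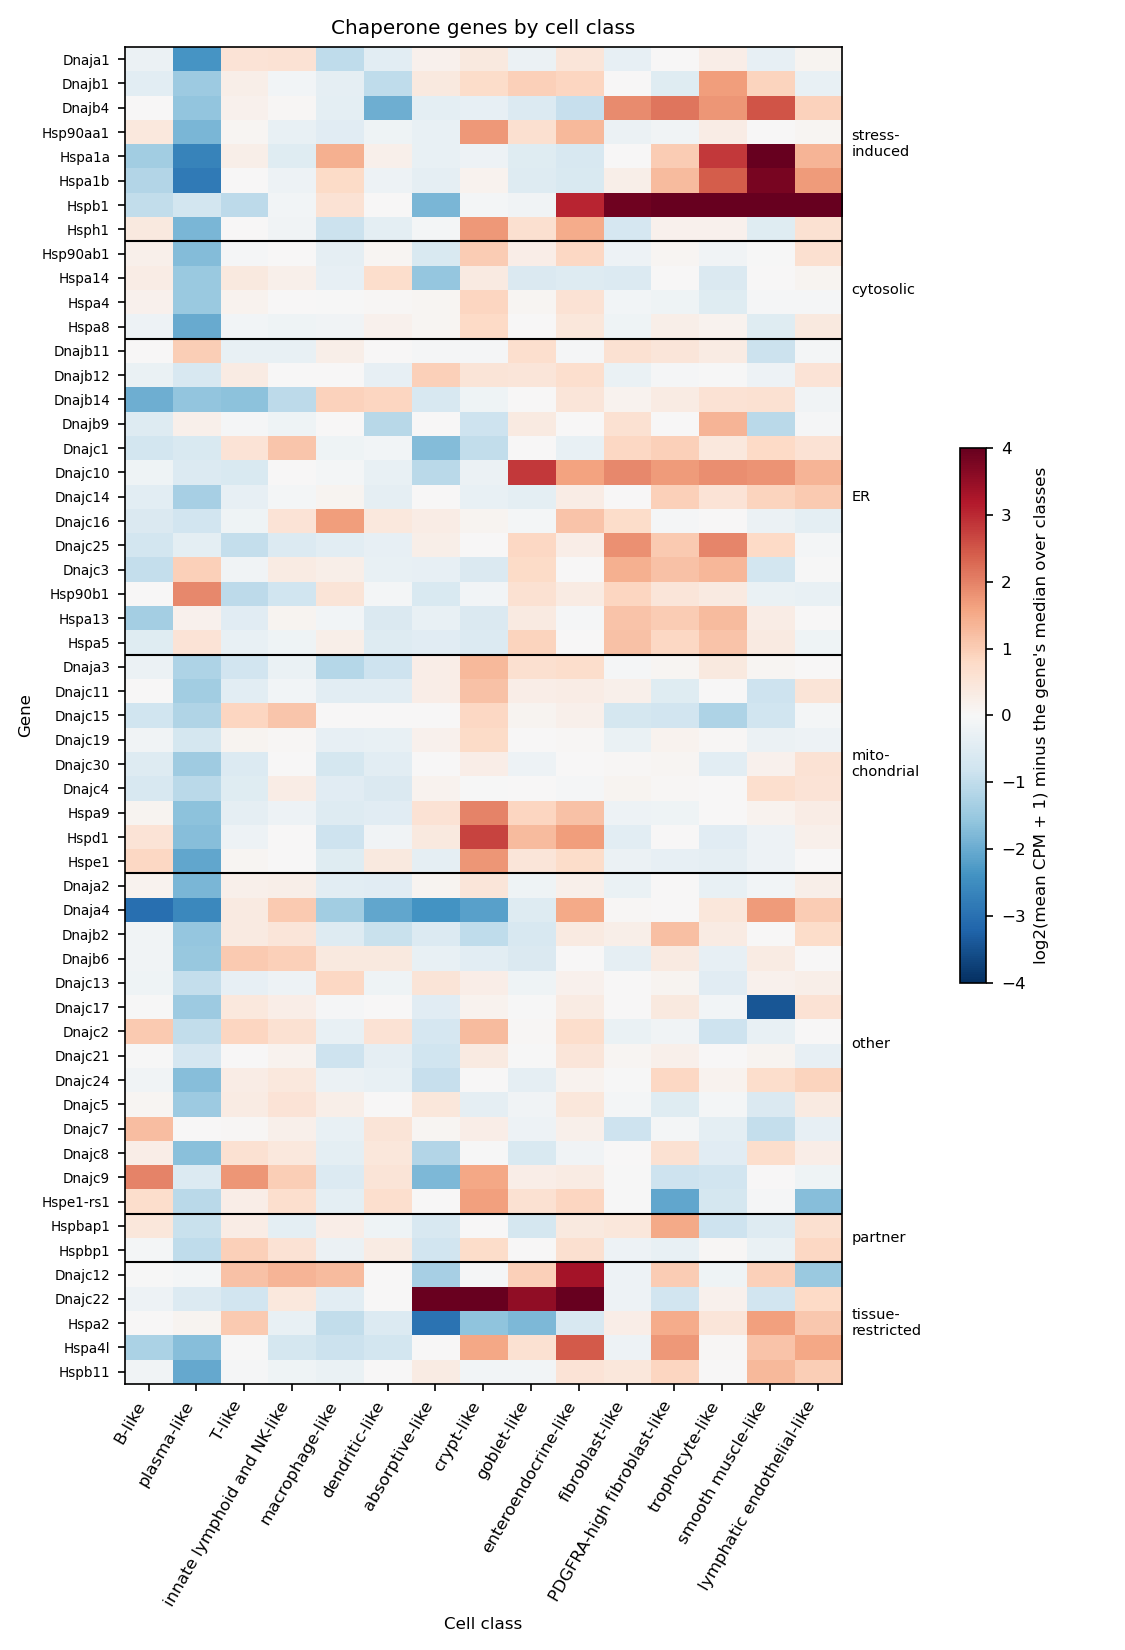
Heat map of the 55 members with at least 1000 UMIs (rows) in 15 classes (columns). Colour gives log2 of the mean CPM over libraries plus 1, minus the gene's median over the classes, with limits at -4 and 4. Hsp90b1 stands out in plasma-like cells, where it averaged 3302 CPM, and Hspd1 and Hspe1 in crypt-like cells.

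The inducible Hsp70 genes and Hspb1 were higher in stromal than in immune cells. Here and in the epithelial comparison the immune sums included plasma-like cells, where immunoglobulin took 53.7% to 60.3% of UMIs. That lowers the immune CPM of other genes, most where plasma-like cells are many, and its part in the results was not tested. Hspa1a, the main inducible Hsp70, stood at 161, 528, 272, 313 and 332 CPM in stromal cells against 37.2, 28.6, 35.7, 109 and 55.1 CPM in immune cells, and the ranges did not overlap. Its log2 fold was 2.01 (SE 0.32, edgeR adjusted p = 0.000124), and it was higher in 5 of 5 libraries. Hspa1b stood at 199, 246, 277, 263 and 303 CPM against 37.9, 39.8, 51.1, 106 and 42.5 CPM, a log2 fold of 1.69 (SE 0.22, edgeR adjusted p = 1.87e-05). Hspb1 (Hsp27), a small heat shock protein that also caps actin filaments, was nearly absent from immune cells, at 2.55, 1.22, 0.403, 4.26 and 3.3 CPM, against 173, 492, 111, 183 and 261 CPM in stromal cells. That gave a log2 fold of 5.94 (SE 0.40, edgeR adjusted p = 4.74e-08). Dnajb4, a DnaJ partner of Hsp70, was at 135, 109, 129, 103 and 148 CPM against 23.4, 16.7, 26.7, 22 and 17.3 CPM, a log2 fold of 1.95 (SE 0.17). In all, 5 of 8 stress-induced members were called higher and 0 lower, with a list median of 1.37 against -0.10 over all 11685 genes tested, of which 27.6% were called higher and 30.7% lower. Dnajb1, the DnaJ partner that feeds Hsp70 during recovery from heat, was the fifth at a log2 fold of 1.04 (SE 0.35, edgeR adjusted p = 0.0222), from 99.4, 319, 212, 62.7 and 69.2 CPM. Its call rested on the small intestine, since the adjusted p was 0.0748 without the jejunum and 0.0881 without the ileum, the libraries with the fewest stromal cells.

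The other stress-induced members were not called higher in stroma. Dnaja1, a cytosolic Hsp70 partner, had a log2 fold of 0.01 (edgeR adjusted p = 0.959). Hsph1 (Hsp110) was at -0.39 (edgeR adjusted p = 0.109) and Hsp90aa1, the inducible Hsp90, at -0.44 (edgeR adjusted p = 0.0505). Without the rectum both passed on the lower side, Hsph1 at -0.62 (edgeR adjusted p = 0.0266) and Hsp90aa1 at -0.57 (edgeR adjusted p = 0.0171). So the group divided into Hspa1a, Hspa1b, Hspb1, Dnajb4 and Dnajb1, called higher in stroma, and 3 members that were not.

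Within the stroma the inducible Hsp70 genes were uneven. Smooth muscle-like cells, of which the colon had 14 and the rectum 30, held 2256 and 1419 CPM of Hspa1a and 1487 and 988 CPM of Hspa1b. Trophocyte-like cells, fibroblasts that surround crypts and secrete Wnt agonists, held 328, 456 and 646 CPM of Hspa1a in ileum, colon and rectum. Fibroblast-like cells held 49.5, 47.8 and 99.6 CPM in duodenum, colon and rectum, and PDGFRA-high fibroblast-like cells 148, 40.8 and 210 CPM in the same segments. Every trophocyte-like and smooth muscle-like value therefore lay above every value of the other 2 fibroblast classes. Hspa1a was seen in 14 of 14 smooth muscle-like cells of the colon and in 90% of those of the rectum. When each cell was thinned to 1000 UMIs these shares were 85.7% and 60%. With smooth muscle-like cells left out, an alternative chosen after seeing the data, Hspa1a kept a log2 fold of 1.61 (edgeR adjusted p = 0.00509) over immune cells and Hspa1b 1.45 (edgeR adjusted p = 0.000448).

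Immediate early and dissociation genes moved with this pattern. The summed level of that list of 19 genes was 13434 to 19842 CPM in trophocyte-like cells and 15940 to 18641 CPM in smooth muscle-like cells. It was 3348 to 4310 CPM in fibroblast-like and 2761 to 3391 CPM in PDGFRA-high fibroblast-like cells. Stromal cells as a whole ranged from 6477 to 30676 CPM and immune cells from 5187 to 6086 CPM. In stroma 4 of the list's 19 genes were called higher, Egr1 among them at a log2 fold of 2.50, and 1 lower. Of all 11685 genes 27.6% were called higher and 30.7% lower, and the medians were 0.12 for the list and -0.10 for all genes. The part of the list's genes in the Hspa1a result was not tested. Lymphatic endothelial-like cells held 118, 183, 242, 154 and 149 CPM of Hspa1a at a list level of 2525 to 8253 CPM.

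**Figure D2:**
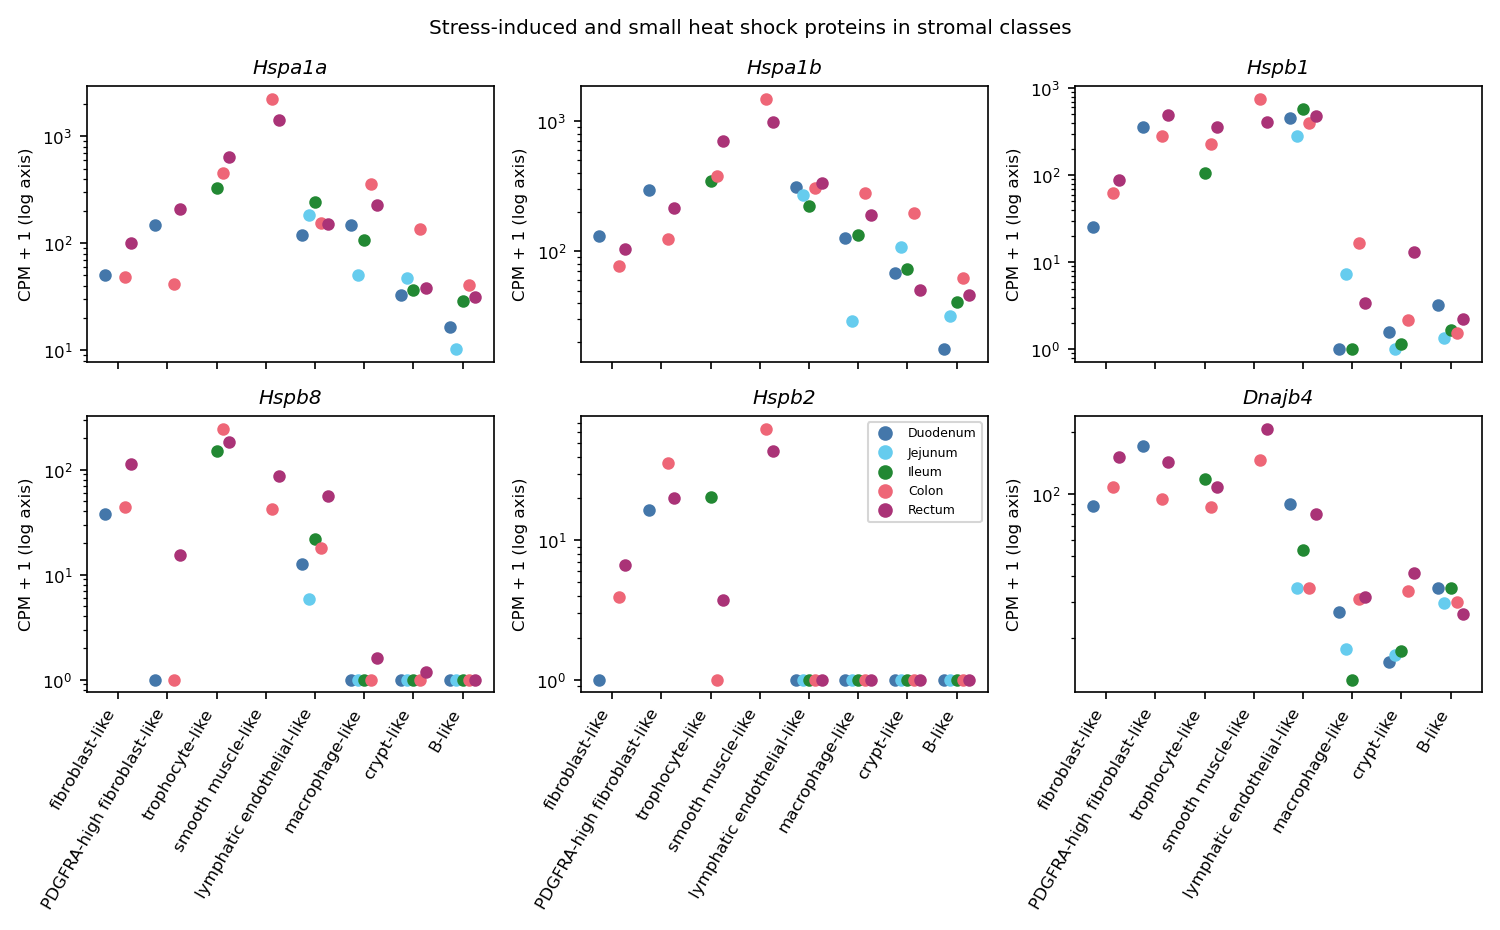
Level of 6 chaperones (panels) in 8 classes, as CPM plus 1 on a log axis, with 1 point per library of at least 10 cells. Smooth muscle-like cells carry the highest Hspa1a points (1419 and 2256 CPM), and Hspb1 is at most 15.9 CPM in the macrophage-like, crypt-like and B-like cells drawn.

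Small heat shock genes marked particular classes of the wall. Hspb1 was at 459, 285, 568, 401 and 477 CPM in lymphatic endothelial-like cells, and 77.3% to 90.9% of them had an Hspb1 UMI. PDGFRA-high fibroblast-like cells held 358, 280 and 492 CPM, smooth muscle-like cells 759 and 410 CPM and fibroblast-like cells 24.7, 60.9 and 87.5 CPM. In absorptive-like cells, which served as background, Hspb1 was seen in 0% to 0.85% of cells. Crypt-like cells of the rectum were an exception in the epithelium, at 12.1 CPM against 0 to 1.17 CPM in the other segments. Their share of cells with an Hspb1 UMI was 12.3% at a depth that thinning to 1000 UMIs reduced to 0.65%.

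Hspb8, which works with the co-chaperone Bag3 to clear clients by autophagy, was at 59.2, 100, 111, 85.7 and 95.1 CPM in stromal cells. In immune cells it was 0 in 4 libraries and 0.129 CPM in the rectum, so the fitted fold depends on the prior count and is left out (edgeR adjusted p = 1.48e-09). Its levels were highest in trophocyte-like cells, at 151, 244 and 181 CPM in ileum, colon and rectum. Hspb2, a small heat shock gene of muscle, was at 9.47, 9.1, 13.8, 11.1 and 12.1 CPM in stroma and likewise 0 in 4 immune libraries. Smooth muscle-like cells held 62.4 and 43.1 CPM of it, and of Hspb7, another gene of muscle with 27 UMIs in all, 20.8 and 43.1 CPM. Hspa12a, a distant Hsp70 relative, had a log2 fold of 4.39 (SE 0.36) in stroma, from 54.5, 18.2, 13.8, 41.2 and 28.3 CPM, and was led by PDGFRA-high fibroblast-like cells at 148, 169 and 71.4 CPM. Smooth muscle-like cells had no Hspa12a UMI in either library. With these, 4 of 7 tissue-restricted members tested were called higher in stroma and 0 lower.

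Beyond the stress-induced and tissue-restricted genes, 5 of 14 members of the endoplasmic reticulum were higher in stroma and 1 lower. Dnajc10 (ERdj5), which reduces disulfide bonds of misfolded proteins, was at 156, 155, 180, 150 and 141 CPM against 30.6, 33.7, 31.4, 33.4 and 33.5 CPM, a log2 fold of 1.63 (SE 0.19, edgeR adjusted p = 6.66e-06). Dnajc25 followed at 1.71 and the cytosolic DnaJ gene Dnaja4 at 1.66. Mitochondrial members had 0 of 9 higher and 3 lower, constitutive cytosolic members 0 of 4 and 3, and other constitutive members 2 of 16 and 7, with Dnajc9, a DnaJ protein that handles histones, at -1.66. Over all 11685 genes tested, 27.6% were called higher and 30.7% lower, with a median of -0.10. Of the 60 members tested, 16 were higher and 14 lower, with a median of -0.13. This balance depended on scaling: with library totals in place of TMM factors the median of all genes moved by 0.65, 28 members were higher and 4 lower, and Dnajc8, Dnaja2, Hspa4, Dnajb11 and Hsp90ab1, called lower with TMM, took a positive sign. Among listed partners, Serpinh1, the collagen chaperone, had the largest log2 fold at 9.42, followed by Cryab at 6.71, Bag3 at 3.81 and Bag2 at 2.75, and 10 of 27 genes of the heat shock factor and co-chaperone list were higher and 3 lower.

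The epithelium stood above immune cells in mitochondrial chaperones: 8 of 10 mitochondrial members were called higher and 0 lower, with a median log2 fold of 0.82 against 0.03 over all genes, of which 33.7% of 13629 were called higher and 32.3% lower. Hspd1 was at 1026, 447, 512, 744 and 563 CPM against 188, 208, 275, 166 and 85.3 CPM, without overlap, for a log2 fold of 1.70 (SE 0.23, edgeR adjusted p = 0.000667). Hspa9, the mitochondrial Hsp70 that pulls imported proteins inward, was at 317, 197, 158, 251 and 236 CPM against 72.7, 83.6, 89.8, 61.8 and 46.7 CPM, a log2 fold of 1.54 (SE 0.19, edgeR adjusted p = 0.000392). Dnajc28 reached 1.94 at levels of 1.89 to 4.78 CPM. The listed proteases and partners of mitochondrial protein quality control went the same way, with 8 of 10 higher and 0 lower.

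Of the stress-induced members 4 of 8 were higher in epithelium and 0 lower. Dnajb1 was at 93.7, 66.8, 71.4, 114 and 126 CPM against 36.8, 28, 48.9, 37.9 and 35.9 CPM, a log2 fold of 1.15 (SE 0.16, edgeR adjusted p = 0.0007). Hsph1 had a log2 fold of 1.04 (SE 0.19, edgeR adjusted p = 0.00292), Hsp90aa1 0.90 (SE 0.18, edgeR adjusted p = 0.00447) and Dnaja1 0.64 (SE 0.16, edgeR adjusted p = 0.0102). Hspa1a was at 27.6, 17.8, 29.3, 154 and 36.1 CPM in epithelium, overlapping the immune range, with a log2 fold of -0.46 (edgeR adjusted p = 0.111). Hspa1b was at 0.05 (edgeR adjusted p = 0.837), Dnajb4 at 0.13 (edgeR adjusted p = 0.631) and Hspb1 at -0.85 (edgeR adjusted p = 0.312). Dnajb1 was thus the stress-induced member called higher in both stroma and epithelium.

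Among tissue-restricted members the epithelium carried Dnajc22, a membrane-anchored DnaJ gene, at 32.2, 26.1, 24.4, 24.5 and 20.3 CPM against 0.164, 1.67, 0.134, 0.682 and 0.0647 CPM in immune cells (log2 fold 5.81, SE 0.57, edgeR adjusted p = 0.000147). Hspa4l, an Hsp110 relative, was at 68.6, 43, 57.3, 91.1 and 74.5 CPM against 17, 13.7, 15.6, 11.6 and 18.8 CPM, a log2 fold of 1.93 (SE 0.21). Hspa2, an Hsp70 known from sperm, went the other way, at 2.09, 1.24, 2.31, 3.03 and 4.81 CPM against 10.5, 11.2, 12.1, 15.5 and 16.8 CPM, a log2 fold of -2.57 (SE 0.17, edgeR adjusted p = 2.4e-05). Dnajb13, a gene of cilia and flagella, was lower at -3.31, but with levels of at most 2.05 CPM in any library. Also lower were Dnajc27 at -2.32, Dnajb5 at -2.22, Hspa12a at -1.67 and Dnajc18 at -1.58, and the Hspa12a call was lost without the duodenum, the jejunum or the colon (edgeR adjusted p of 0.0884, 0.0687 and 0.0651). Over all 13629 genes tested, 33.7% were called higher and 32.3% lower, with a median of 0.03. Of the 63 members tested, 19 were higher and 14 lower, with a median of 0.05. With library totals in place of TMM factors the median of all genes moved by 0.17 and the count became 23 higher and 5 lower, with no called member changing sign. Pathway genes at the extremes were Ern2, a stress sensor of mucous epithelia, at 5.40, Bag3 at 2.86, Atf3 at 2.43, Klf4 at 2.32 and Gadd45b at -1.86.

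Along the path from dividing crypt cells to mature absorptive cells, Dnajc9, Hspd1, Hspe1, Hsp90aa1, Hsp90ab1 and Hsph1 were higher at the crypt end. Dnajc9 had the largest log2 fold, 3.09 (SE 0.16, edgeR adjusted p = 4.3e-05), at 88.9, 76.7, 93, 69.5 and 55.8 CPM in crypt-like cells against 8.24, 5.72, 6.28, 7.13 and 5.88 CPM in absorptive-like cells. Hspd1 was at 1698, 1376, 1338, 1228 and 628 CPM against 542, 209, 180, 281 and 23.5 CPM, a log2 fold of 2.28 (SE 0.47, edgeR adjusted p = 0.00517). Its head-to-head neighbour Hspe1 was at 1424, 1402, 1320, 1094 and 623 CPM against 536, 271, 213, 296 and 37.2 CPM, a log2 fold of 1.97 (SE 0.43, edgeR adjusted p = 0.00618). The rectum was the lowest library for both genes on both sides, and its absorptive-like class had 57 cells at a median of 5792 UMIs. With every deposited barcode kept, that class held 655 barcodes in the rectum and 647 in the colon, against 57 and 273 after filtering. Levels of absorptive-like cells here and below are therefore those of the cells that passed the filters.

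Hsp90aa1 was at 2392, 1947, 1786, 1613 and 1105 CPM in crypt-like cells against 778, 384, 440, 445 and 139 CPM, a log2 fold of 1.73 (SE 0.29, edgeR adjusted p = 0.00197). Hsph1 was at 301, 239, 228, 230 and 115 CPM against 108, 42.7, 57.3, 84.9 and 15.7 CPM, a log2 fold of 1.55 (SE 0.27, edgeR adjusted p = 0.0024). These 2 of the 7 stress-induced members tested were the ones called, with 0 lower. That share of higher calls lies near the background, since 28.7% of 11708 genes were called higher and 29.6% lower. The median log2 fold was 0.04 in the group and -0.03 over all genes. Hspa1a was at 0.04 (edgeR adjusted p = 0.936), Hspa1b at 0.35 (edgeR adjusted p = 0.369), Dnajb1 at -0.09 (edgeR adjusted p = 0.685), Dnaja1 at -0.10 (edgeR adjusted p = 0.787) and Dnajb4 at -0.61 (edgeR adjusted p = 0.358). The difference between these genes' folds was not tested.

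Other calls in crypt-like cells included Hsp90ab1 at a log2 fold of 1.30 (SE 0.29, edgeR adjusted p = 0.00681), Hspa14, which sits on the ribosome, at 1.61 and its ribosomal partner Dnajc2 at 1.52. By group, 4 of 10 mitochondrial members were higher and 1 lower, other constitutive members had 5 of 14 higher and 4 lower (Dnajc5, Dnajb2, Dnajc13 and Dnajb6), and constitutive cytosolic members had 2 of 4 higher and 0 lower. Tissue-restricted members had 4 of 7 higher, Dnajc12 at 2.06 and Hspb6 at 1.59 among them, at no more than 8.62 and 3.73 CPM. Dnajc18 was called higher at 1.43 but not without the duodenum, the jejunum or the ileum. The endoplasmic reticulum went mostly the other way, with 2 of 14 higher and 6 lower. Dnajb9 (ERdj4), a brake on a stress sensor of that compartment, was at 43.6, 31.3, 29, 48.3 and 56.4 CPM against 93.2, 75.7, 69.7, 74.2 and 62.7 CPM, a log2 fold of -1.33 (SE 0.26, edgeR adjusted p = 0.00377). Over 58 members tested, 20 were higher and 11 lower, where 28.7% of 11708 genes were called higher and 29.6% lower, and the medians were 0.24 and -0.03. With library totals in place of TMM factors the median of all genes moved by 0.43, and 31 members were higher and 2 lower.

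The cytosolic partners that were listed beside the members moved with the crypt end as well. The TRiC chaperonin and prefoldin, which fold actin and tubulin, had 11 of 13 genes higher and 0 lower, with a median log2 fold of 0.96. Of 26 heat shock factor and co-chaperone genes, 15 were higher and 6 lower, and Bag2 at 4.53 and Ier5 at -1.90 were the extremes. The unfolded protein response list had 0 of 20 higher and 7 lower, Edem1 among them at -1.57. Nr4a1 at 1.86 and Klf4 at -1.56 were the immediate early genes furthest from 0.

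Plasma-like cells, which secrete antibody, were compared with B-like cells, and the endoplasmic reticulum set them apart. Of 13 members of that compartment, 12 were called higher and 0 lower, with a median log2 fold of 1.76 against -0.06 over all 8771 genes, of which 25.5% were called higher and 26.5% lower. Hsp90b1 was at 1872, 2823, 3779, 3599 and 4436 CPM against 407, 505, 415, 921 and 2130 CPM, a log2 fold of 3.56 (SE 0.30, edgeR adjusted p = 1.51e-05). Dnajc3 (p58IPK), a BiP partner, was at 270, 310, 349, 328 and 407 CPM against 55.4, 70.4, 57.4, 74.9 and 184 CPM, a log2 fold of 3.43 (SE 0.23). Hspa13, an Hsp70 of microsomes, had a log2 fold of 3.04 (SE 0.27), the BiP partner Dnajb11 (ERdj3) 2.41, Hspa5 2.36 (SE 0.16, edgeR adjusted p = 8.35e-06), Dnajb9 2.11, Dnajc25 1.76 and Dnajb14 1.72. The 20 tested genes of the unfolded protein response list had 19 higher and 0 lower, with a median of 2.60, led by Xbp1 at 4.91, Creld2 at 4.32, Edem1 at 4.30, Ern1 at 3.93 and Herpud1 at 3.51. Xbp1 was also among the markers that named plasma-like cells, so its call adds no separate support.

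In other compartments plasma-like cells had calls in both directions. Mitochondrial members had 3 of 9 higher (Dnajc15 at 0.95, Dnajc4 at 0.93 and Dnajc19 at 0.79, each of which took a negative sign with library totals) and 3 lower, other constitutive members 2 of 12 higher and 4 lower, and constitutive cytosolic members 0 of 4 higher and 3 lower. Hspe1 was at 77.7, 100, 86.6, 77.7 and 61.7 CPM against 695, 648, 754, 598 and 396 CPM, a log2 fold of -1.54 (SE 0.12, edgeR adjusted p = 1.27e-05). Hspd1 was at -0.87 (SE 0.18, edgeR adjusted p = 0.00291) and Dnajc9 at -1.30. Stress-induced members had 0 of 7 higher and 3 lower: Hsp90aa1 at -0.86 (SE 0.17, edgeR adjusted p = 0.00236), Hsph1 at -0.80 (edgeR adjusted p = 0.00277) and Dnaja1 at -0.71 (edgeR adjusted p = 0.00455). At a limit of 10% mitochondrial UMIs, where the plasma-like class took in 103 cells otherwise B-like, these signs turned, to 0.89 for Hsp90aa1 (edgeR adjusted p = 0.00238), 0.33 for Hsph1 and 0.050 for Dnaja1, as did that of Dnajc9, to 0.32. Dnajb4 stood at -0.28 (edgeR adjusted p = 0.196), Dnajb1 at 0.37 (edgeR adjusted p = 0.172), Hspa1b at -0.72 (edgeR adjusted p = 0.104) and Hspa1a at -0.06 (edgeR adjusted p = 0.916). TRiC and prefoldin genes had 0 of 13 higher and 8 lower. Over 51 members, 20 were higher and 14 lower, where 25.5% of 8771 genes were called higher and 26.5% lower.

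Of the comparisons between classes this one moved most with scaling. Immunoglobulin transcripts took 53.7% to 60.3% of the UMIs of plasma-like cells against 1.45% to 18.9% in B-like cells. With library totals the median of all genes moved by -1.37, 6 members were higher and 37 lower, and 10 called members changed sign, Dnajc10, Dnajc19, Dnajc13 and Dnajc21 among them. Under the same totals Hsp90b1 kept 2.18, Dnajc3 2.05, Hspa13 1.68, Dnajb11 1.03, Hspa5 0.98 and Dnajb9 0.73, and Hspe1, Hspd1 and Dnajc9 kept their sign, while Dnajb14 (edgeR adjusted p = 0.128) and Dnajc25 (edgeR adjusted p = 0.0618) were no longer called. On the CPM scale over the UMIs that were not immunoglobulin, Hsp90b1 was at 4710, 6699, 8688, 7778 and 10448 in plasma-like cells against 413, 517, 423, 995 and 2625 in B-like cells. The rise of Hsp90b1 among B-like cells of colon and rectum came with a cluster of 183 cells that carried germinal-centre genes, in which it stood at 1827 and 4416 CPM there. Summed over its cells of these 2 segments, the cluster also held transcripts of plasma cells. Jchain, which joins antibody units, was at 19335 and 52097 CPM and Xbp1 at 778 and 1536 CPM. Plasma-like cells of colon and rectum held 64352 and 69137 CPM of Jchain and 1807 and 1899 CPM of Xbp1. At Leiden resolution 2 the plasma-like class took in 32 cells otherwise B-like, 5 of the colon and 26 of the rectum. Whether single cells carried both sets of genes was not tested. Without that cluster B-like cells held 411, 483, 373, 381 and 405 CPM of Hsp90b1. Hsp90aa1 in plasma-like cells then had a log2 fold of -0.29 (edgeR adjusted p = 0.130).

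Goblet-like cells, which secrete mucin, showed a smaller set of the same compartment's genes when compared with absorptive-like cells. Of 14 members of the endoplasmic reticulum, 7 were higher and 2 lower, with a median log2 fold of 0.52 against 0.00 over all 11134 genes, of which 21% were called higher and 22.1% lower. Dnajc10 led at 415, 322, 351, 212 and 198 CPM against 12.7, 10.7, 11.1, 21.8 and 37.2 CPM, a log2 fold of 3.96 (SE 0.49, edgeR adjusted p = 0.00108). Hspa5 was at 2339, 1886, 2219, 1189 and 1133 CPM against 983, 790, 993, 374 and 321 CPM, a log2 fold of 1.19 (SE 0.20, edgeR adjusted p = 0.00304). Hsp90b1 followed with 1.06 (SE 0.19, edgeR adjusted p = 0.00392), Dnajc3 with 0.84 (SE 0.16) and Dnajc1, a BiP partner at the translocon, with 1.55. Colon and rectum were lower than the 3 small-intestinal libraries for Hspa5, Hsp90b1 and Dnajc3 in goblet-like and absorptive-like cells alike. The unfolded protein response list had 12 of 21 genes higher and 0 lower, among them Pdia6 at 2.40, Sdf2l1 at 1.79, Herpud1 at 1.61 and Pdia4 at 1.51, and Ern2 reached 8.43.

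Dnajc10 had unlike levels in these 2 secretory classes. It averaged 299.6 ± 92.7 CPM (SD, n = 5) in goblet-like cells, the highest mean of the ranked classes, whereas plasma-like cells held 31.4, 25.1, 25.3, 26.4 and 29.1 CPM. Its sign in the plasma comparison turned with scaling, from 0.98 with TMM factors to -0.40 with library totals. The difference between the goblet and plasma comparisons was not tested.

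Outside the compartment, goblet-like cells had higher Dnajc12 at a log2 fold of 3.48 (SE 0.60, edgeR adjusted p = 0.00368), Dnajc9 at 1.90 and Dnaja4 at 1.88. Hspa14 at 0.80 was also higher, and Dnajc13 at -0.95, Dnajc22 at -0.66, Dnaja2 at -0.54 and Dnajc7 at -0.52 were lower. Of the remaining calls Hspb6 at 1.82 and Dnajc28 at -1.72, and within the compartment Dnajc18 at 2.04, were lost without the jejunum or the ileum, and Hspa2 at 1.30 was lost whichever library was left out. None of the 7 stress-induced members tested was called by edgeR, and 3 had an unadjusted p under 0.05. Hspa1a was at -0.68 (edgeR adjusted p = 0.0612), Hspa1b at -0.64 (edgeR adjusted p = 0.0765), Hsp90aa1 at 0.86 (edgeR adjusted p = 0.0821), Hsph1 at 0.63 (edgeR adjusted p = 0.137), Dnaja1 at -0.54 (edgeR adjusted p = 0.173), Dnajb4 at -0.50 (edgeR adjusted p = 0.383) and Dnajb1 at 0.28 (edgeR adjusted p = 0.321). Without the rectum Hspa1a (-0.87, edgeR adjusted p = 0.0163), Dnaja1 (-0.81, edgeR adjusted p = 0.0209) and Dnajb4 (-0.87, edgeR adjusted p = 0.0364) passed on the lower side, and Hspa1b did without the duodenum (-0.85, edgeR adjusted p = 0.0320). Over 57 members, 13 were higher and 7 lower with a median of 0.28, where 21% of 11134 genes were called higher and 22.1% lower. With library totals the median of all genes moved by 0.22 and 22 members were higher and 2 lower. The count of higher members fell to 8 without the jejunum or the ileum, and that of lower members ranged from 1 without either of these to 11 without the rectum, with 4 without the duodenum or the colon.

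**Figure D3:**
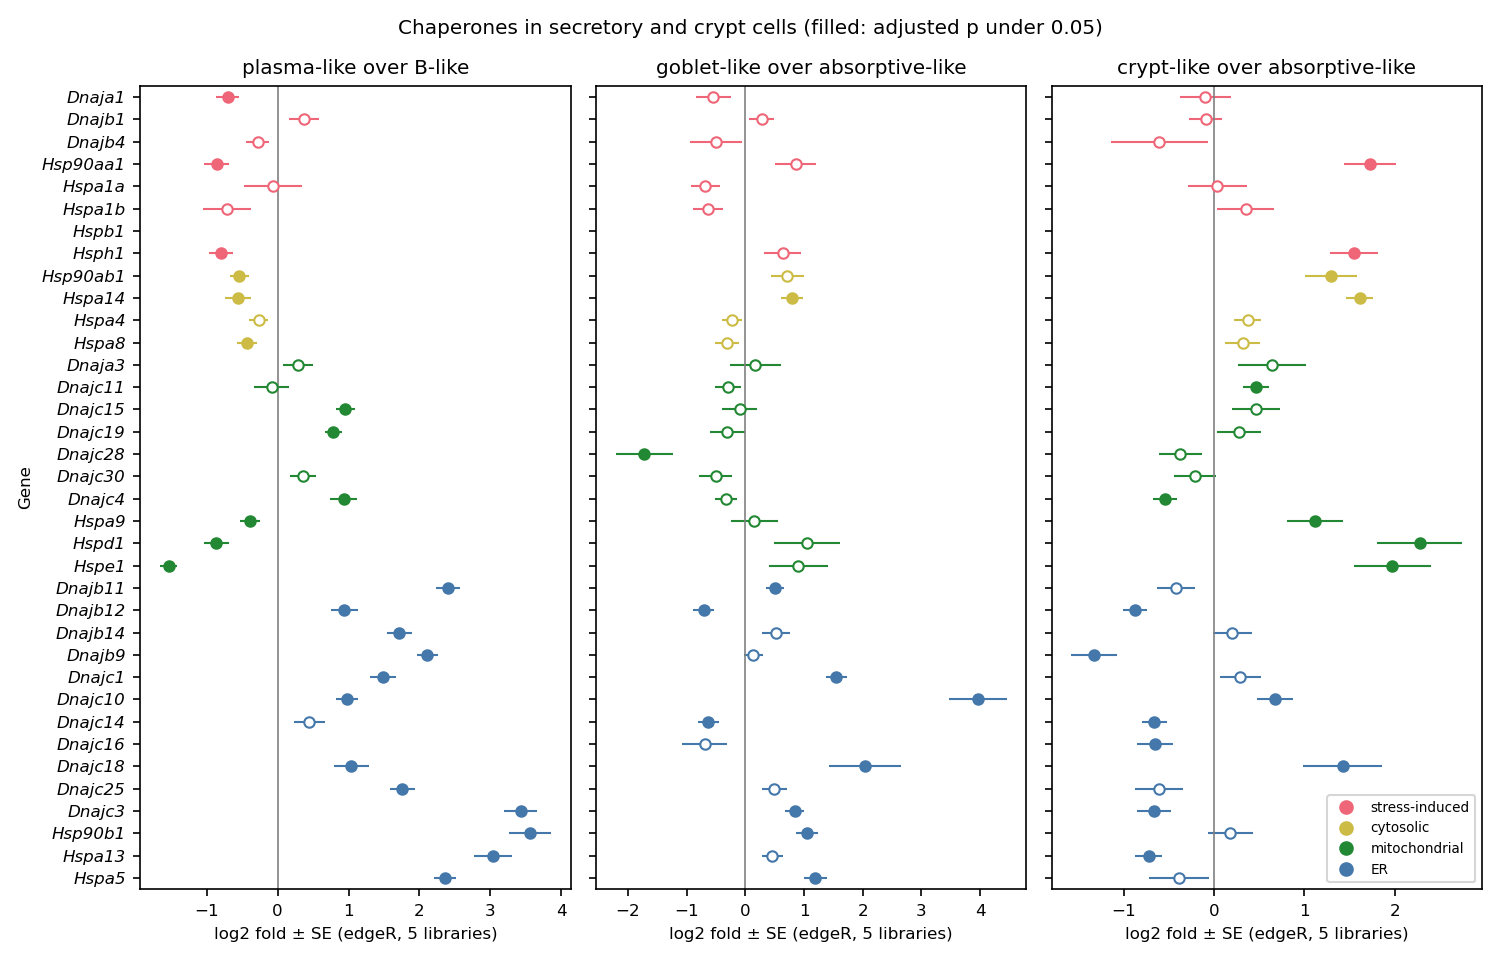
Log2 fold with its standard error in plasma-like against B-like, goblet-like against absorptive-like and crypt-like against absorptive-like cells. Stress-induced, constitutive cytosolic, mitochondrial and endoplasmic reticulum members are drawn, and the other groups are not. Filled points passed an edgeR adjusted p of 0.05. Members of the endoplasmic reticulum lie to the right in the plasma comparison (12 of 13 called higher), less so in goblet-like cells (7 of 14) and to the left in crypt-like cells (6 of 14 called lower).

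Between segments the inducible Hsp70 pair differed most in the colon library. Absorptive-like cells held 24.7, 11.5, 39.2, 166 and 25.5 CPM of Hspa1a, and goblet-like cells 12, 9.79, 17.1, 158 and 34.5 CPM. Enteroendocrine-like cells held 8.79, 4.73, 2.52, 176 and 16.3 CPM, crypt-like cells 31.9, 46.4, 35.6, 135 and 37.4 CPM and T-like cells 45, 57.8, 26.3, 209 and 44.4 CPM. In each of these classes the colon stood above the other 4 libraries by more than they differed among themselves. In the epithelium the classes were made of different clusters in different segments: colon absorptive-like cells lay in cluster 34 (272 from the colon and 1 from the rectum), colon crypt-like cells in cluster 31 (408 and 7) and colon goblet-like cells in clusters 32 and 33, while the small intestine and most of the rectum lay in others. Enteroendocrine-like and macrophage-like cells each formed 1 cluster over all segments. Macrophage-like cells were high in the colon at 354 CPM and in the rectum at 227 CPM, against 49.9 to 149 CPM in the small intestine. Plasma-like cells had 1.4, 3.06, 0, 19.6 and 23.5 CPM. Dendritic-like cells did not share the pattern, with 52.2 CPM in the colon and 123 CPM in the rectum.

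Hspa1b ran in parallel, with 200 CPM in colon goblet-like cells against 12.6 to 39.5 CPM elsewhere and 234 CPM in colon enteroendocrine-like cells against 5.05 to 18.9 CPM. Over 11 classes with enough cells in every library, Hspa1a was highest in the colon in 8 and Hspa1b in 9. The other inducible genes shared the colon's rank in goblet-like cells by smaller steps: Dnajb1 was at 159 CPM there against 69.6 to 136 CPM elsewhere, Hsph1 at 158 against 68.2 to 121 CPM, Hsp90aa1 at 1014 against 710 to 864 CPM and Dnaja1 at 426 against 307 to 339 CPM. In absorptive-like cells none of these 4 was highest in the colon. A rule added after seeing these values, highest in the colon in at least 8 of 11 classes, held for 2 of 25 members tested and for 1.07% of 2051 genes. The 2 were the near-identical Hspa1a and Hspa1b, and the limit equals Hspa1a's own count, so the rule adds no separate support. No member met the same rule in any other segment. There it held for 0.0975%, 2.49%, 0.536% and 0.878% of genes in duodenum, jejunum, ileum and rectum, too few to expect a member. The colon library also had the highest median share of mitochondrial UMIs in kept cells, 6.81% against 4.59% to 5.60% in the other libraries, and its part in the result was not tested. The summed level of the immediate early and dissociation list was 6397, 5501, 3891, 7349 and 14643 CPM in crypt-like cells, so that the colon was above the small intestine and below the rectum. The rectum was highest in goblet-like and enteroendocrine-like cells as well, the duodenum in absorptive-like and macrophage-like cells and the colon in T-like cells, at 8314 CPM against 6904 to 8071 CPM. The part of these genes in the Hspa1a result was not tested.

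Shares of cells with an Hspa1a UMI gave the same order. Of absorptive-like cells of the colon 78.8% had one, and when thinned to 1000 UMIs the share was 15.6% against 1.3% to 2.9% in the other segments. Goblet-like cells of the colon had 62.2%, or 11.4% when thinned, against 2.2% to 3.0% elsewhere, and thinned crypt-like cells of the colon had 13.8% against 2.82% to 4.39%. In macrophage-like cells the colon share was 47.3% (exact 95% interval 37.7% to 57.0%) and the rectum share 39.3%, against 11.8% to 14.3% in the small intestine, where each interval covers counting error only. Plasma-like cells had 0% to 15.7% at median depths of 19623 to 30093 UMIs, and 0% to 1.65% when thinned. Their shares are lowered by immunoglobulin, which took 53.7% to 60.3% of their UMIs. On the CPM scale over the other UMIs, Hspa1a was at 3.53, 7.26, 0, 42.3 and 55.3 in plasma-like cells. In B-like cells it was at 15.7, 9.39, 28.3, 43 and 37.9 on that scale.

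**Figure D4:**
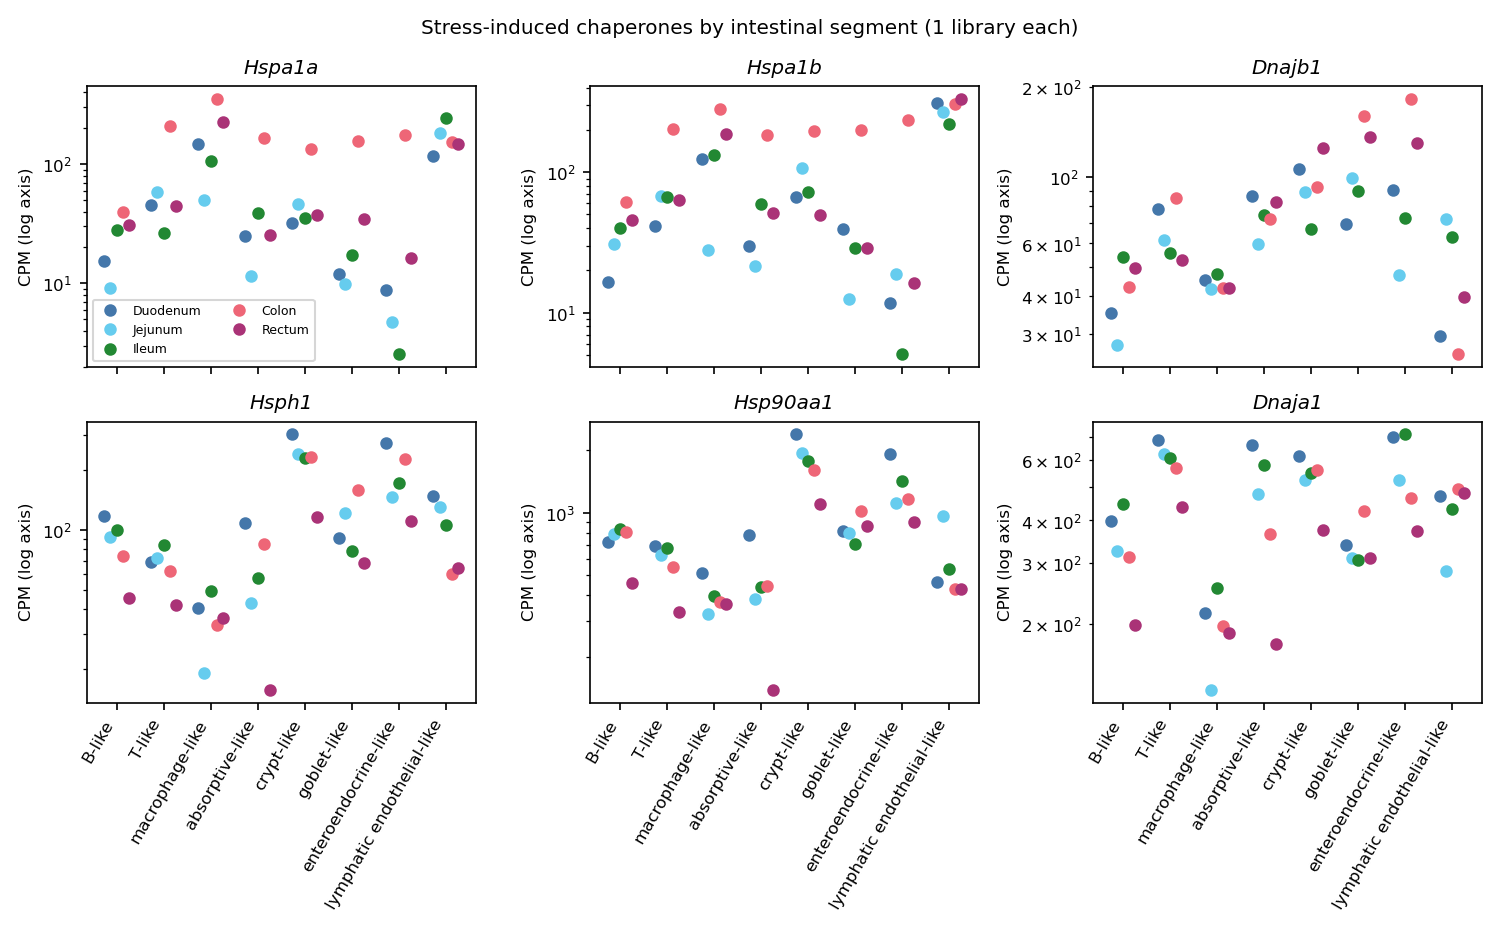
Level of 6 stress-induced members (panels) in 8 classes, in CPM on a log axis, with 1 point per library coloured by segment. For Hspa1a and Hspa1b the colon point is the highest in absorptive-like and goblet-like cells (166 and 158 CPM of Hspa1a), while for the other 4 genes it is the highest in goblet-like but not in absorptive-like cells.

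By contrast few members separated the small from the large intestine. The rule asked that the lowest library of one side be at least 2-fold above the highest of the other. In B-like cells 0 of 55 members tested met it in either direction, while the small intestine was higher for 1.55% of 9874 genes and the large intestine for 0.567%. Stromal cells had 0 of 53 members either way, against 0.346% and 0.0693% of 8663 genes. Crypt-like cells had 1 of 60 members higher in the small intestine and 2 in the large, against 2.41% and 3.54% of 12204 genes. The first was Dnajb3, a testis gene at low levels, with a gap of 2.91-fold. The others were Dnajb4, at 14.3, 15.5 and 16.2 CPM in the small intestine against 32.8 and 40.5 CPM (gap 2.02-fold), and Hspb11, a gene of cilia transport that is a small heat shock protein in name, with a gap of 2.34-fold. These shares lie near or under the background, and no test was run.

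To see whether stress-induced members went together within a class, cells with and without an Hspa1a UMI were paired. The cells of a pair shared the library and the cluster and were of like depth. Where a cluster had too few cells without Hspa1a, the remaining cells with it stayed unpaired. Hspa1a itself was left out. In B-like cells, with 14 to 37 pairs per library, Hspa1b stood at 297, 179, 664, 225 and 741 CPM in cells with Hspa1a against 0, 11, 0, 21.6 and 26.7 CPM in those without. Its log2 fold was 4.83 (SE 0.38, edgeR adjusted p = 5.42e-08). It was the member called of 23 tested, where 0.0497% of 2014 genes were called higher and 0% lower, and 3 members had an unadjusted p under 0.05. The other inducible genes were at 0.35 for Hsp90aa1 (edgeR adjusted p = 0.72), 0.58 for Hsph1 (edgeR adjusted p = 0.926) and 0.37 for Dnaja1 (edgeR adjusted p = 0.982).

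Crypt-like cells gave 42 to 186 pairs per library, and in the colon 186 of 221 cells with Hspa1a were paired. Hspa1b was at 117, 174, 124, 250 and 83.1 CPM with Hspa1a against 30.8, 39.8, 37.4, 99.3 and 29.8 CPM without, a log2 fold of 1.66 (SE 0.09, edgeR adjusted p = 7.17e-10). Dnajb1 was at 120, 94.2, 83, 107 and 139 CPM against 99.5, 83.2, 53.4, 72.6 and 115 CPM, a log2 fold of 0.37 (SE 0.06, edgeR adjusted p = 0.0117), higher in 5 of 5 libraries. Dnaja1 followed at 0.20 (SE 0.04, edgeR adjusted p = 0.0490), while Hsph1 was at 0.15 (edgeR adjusted p = 0.245) and Hsp90aa1 at 0.04 (edgeR adjusted p = 0.739). So 3 of 56 members tested were higher and 0 lower, all in the stress-induced group of 6 tested, where 0.286% of 10822 genes were called higher and 0.259% lower. When cells were divided by a UMI of either Hspa1a or Hspa1b, with both genes left out, 0 members were called in any of the 3 classes, and Dnajb1 was at 0.43 (edgeR adjusted p = 0.335). Without the library as a pairing term 0 members were called in crypt-like and stromal cells. The Dnajb1 call was lost without the duodenum (edgeR adjusted p = 0.0584), the ileum (0.0579) or the colon (0.0781), and the Dnaja1 call without any of the small-intestinal libraries. Bag3, a co-chaperone switched on by heat shock factor 1, was at 0.41 (edgeR adjusted p = 0.0425) and Ier5, an immediate early gene that acts on that factor, at 0.32 (edgeR adjusted p = 0.0308).

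Genes of Paneth cells moved with the same division of crypt-like cells. Chosen after their values were seen, Lyz1 was at a log2 fold of 2.10 (SE 0.17, edgeR adjusted p = 2.81e-06), Mptx2 at 2.36, Defa24 at 1.74, Defa30 at 1.57 and Itln1 at 1.11. Olfm4 at -0.50 (edgeR adjusted p = 0.0014), Smoc2 at -0.45 and Axin2 at -0.36, genes of crypt stem cells, and Top2a at -0.31, a gene of dividing cells, were lower. The total UMIs of cells with Hspa1a against those without had ratios of 1.04, 1.26, 1.13, 1.47 and 0.999. The part of these differences in the result was not tested.

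Stromal cells gave enough pairs in 3 libraries, 10 in the duodenum, 43 in the colon and 108 in the rectum. These libraries had 27, 66 and 164 stromal cells with Hspa1a, so many of them did not enter. Hspa1b was at 240, 261 and 240 CPM against 36.2, 103 and 146 CPM, a log2 fold of 1.07 (SE 0.21, edgeR adjusted p = 0.0325). Hspb1 was at 188, 212 and 292 CPM against 60.3, 112 and 149 CPM, a log2 fold of 1.0 (SE 0.18, edgeR adjusted p = 0.0228). These were the 2 members called of 40, where 0.174% of 5163 genes, 9 in all, were called higher and 0% lower. Dnajb1 was at 0.68 and Hsph1 at -0.43, both at an edgeR adjusted p of 1. The other genes called were Cxcl1 at 2.31, Atf3 at 1.91, Mmp3 at 1.61, Fosb at 1.5, Egr1 at 1.08, Ier2 at 1.03 and Nfkbia at 0.91, of which 4 belong to the immediate early and dissociation list. Leaving out the colon left 0 members called, and leaving out the rectum left 1. T-like cells had enough pairs in 2 libraries and could not be fitted.

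**Figure D5:**
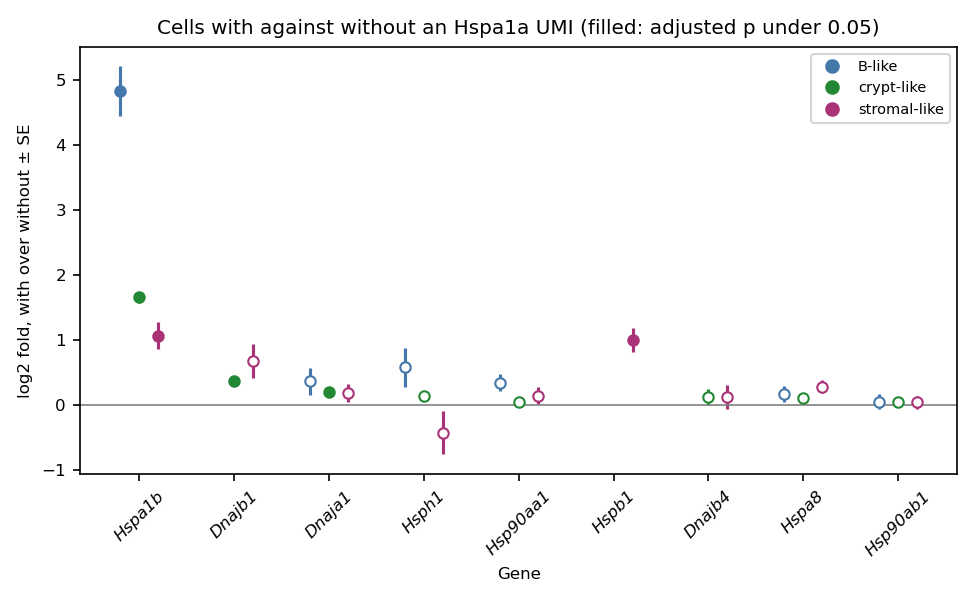
Log2 fold (vertical axis) with its standard error between cells with and without an Hspa1a UMI in B-like, crypt-like and stromal cells. The genes are the other stress-induced members and the constitutive Hspa8 and Hsp90ab1, where tested. Hspa1b lies above 0 in all 3 (4.83, 1.66 and 1.07). In stromal cells Hspb1 lies close to it at 1.0, and the other members drawn lie nearer 0.

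Across 66 sums of a class in a library, from 17 classes, Hspa1b was the gene whose level followed Hspa1a most closely among 13565 genes, with a Pearson r of 0.903 on log2 of CPM plus 5. Fcgrt came next at 0.693, then Scarb2 at 0.678, Snapc2 at 0.674 and Herpud2 at 0.671. Among members Dnajb4 was at 0.576, Hspb8 at 0.548, Hspb1 at 0.510 and Dnajb1 at 0.317. Hsp90aa1 was at 0.134 and Hsph1 at 0.122, far below the Hsp70 pair although all belong to the inducible group. These points share libraries and depth and describe the data without a test.

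Several tissue-restricted members were spread over few classes. Enteroendocrine-like cells, which make gut hormones, held Dnajc12, a DnaJ partner of aromatic amino acid hydroxylases, at 60, 23.6, 55.5, 39.2 and 119 CPM, the highest mean of the ranked classes at 59.5 ± 36.3 CPM (SD, n = 5). They also led for Hspa4l, at 188 ± 65 CPM. Hspa12b, an Hsp70 relative of endothelium, was at 88.2, 43.4, 52.6, 76.8 and 79.5 CPM in lymphatic endothelial-like cells and had no UMI in any immune class. Dnajc7, which binds Hsp70 and Hsp90 together, and Dnajc9 were highest in B-like cells, at 214.8 and 102.7 CPM. Dnajb6, which keeps aggregation-prone proteins soluble, was highest in T-like cells at 297.7 CPM. Dnajb9 was highest in trophocyte-like cells at 196 CPM. The libraries of the highest class lay apart from those of the next for Dnajc12, Hspa4l, Hspa12b and Dnajb9, and overlapped them for Dnajc7, Dnajc9 and Dnajb6.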

How the data were processed

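The deposited matrices hold whole-number UMI counts per gene and cell barcode without normalization, per the file headers. They were made with Cell Ranger, for which the submitters' processing notes give version 4.0.0, with Seurat and the build mm10, and the matrix headers give version 7.2.0. Spatial measurements were not analysed here. Cells needed 300 or more genes and a mitochondrial share of no more than 20%, and the 333 highest Scrublet scores were removed as doublets (0.8% per 1000 barcodes). Clusters came from scanpy 1.11.5 (2000 variable genes without the members, 30 components, 15 neighbours, Leiden resolution 1) and were named from marker lists. Counts were summed per class and library with at least 10 cells and tested with edgeR 4.0.16 (filterByExpr, TMM, quasi-likelihood, library as a term), which was tested on simulated data. Named genes were all stress-induced members, the 10 members and 5 pathway genes with the largest fold among those called and alike in every library, the 5 widest gaps between small and large intestine in each direction, and the members leading each group. Members and lists were chosen with earlier results of these data known. Pairs shared the library and the cluster. Gene positions and promoters are from RefSeq. Alternatives included DESeq2 1.42.0, other cell filters, cluster resolutions and scalings, and leaving out each library.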

Additional observations from a re-analysis of the deposited data

Results flagged for a closer look

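With 1 library per segment, differences between segments were not tested. For 20 results on members with at least 1000 UMIs the 3 libraries of the small intestine differed between 2 classes in one direction and both libraries of the large intestine in the other, a difference between regions that was not tested. The smallest gap between the regions' log2 differences is given, as small minus large intestine. In the epithelium against immune cells, Hspa5 leaned to the epithelium more in the small intestine, with a gap of 0.497, and Dnajb2 (-0.379), Dnajc17 (-0.171), Dnajc5 (-0.393), Hspb11 (-1.10) and Dnajc16 (-1.06) more in the large. In stroma against immune cells Hsp90b1 leaned to stroma in the small intestine (0.606), and Dnajc8 (-0.663), Dnajb6 (-0.430), Hsph1 (-0.523) and Hsp90ab1 (-0.364) in the large. In goblet-like against absorptive-like cells Hspb11 leaned to goblet-like cells in the small intestine (0.693), and Dnajb4 (-1.15), Dnaja1 (-0.849), Dnajc11 (-0.565) and Hspa8 (-0.347) in the large. In crypt-like against absorptive-like cells Hspa5 (-1.11), Dnajb4 (-1.41), Dnajc25 (-0.617) and Dnajb11 (-0.207) leaned to crypt-like cells in the large intestine.

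Such opposite signs made up 9.52%, 8.77% and 6.90% of members in the epithelial, goblet and crypt comparisons, against 9.99%, 7.2% and 6.95% of all genes. In stroma the shares were 8.33% and 4.23%, and in plasma-like against B-like cells 0% and 0.775%. Immune cells held more Hsp90b1 in the colon and rectum, at 1814 and 3111 CPM, than in the small intestine, at 730 to 1184 CPM. They held less Hsp90ab1 there, at 1285 and 964 CPM against 1543 to 1897 CPM. Plasma-like cells, rich in immunoglobulin, made up 242 of the 1172 immune cells of the rectum, and their part in these signs was not tested.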

How the results depend on the processing

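The segments have no replicates, so every test rests on the spread between 5 libraries, and stromal cells were few in 3 of them. Of the counts of members recomputed under alternatives 314 were within 1.5 times the reported value and 52 were not. Of single folds 1608 kept their direction and their side of the threshold, 79 lost the call, 39 gained one and 7 reversed. The causes were not tested. A further 20 single values were not folds but shares of cells with an Hspa1a UMI, recomputed after thinning. These 20 fell outside the counting interval of the unthinned share. Thinning lowers such shares by design, so they do not show how stable the results are.

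Library totals without TMM factors, chosen after seeing the data, gave 5 members lower in epithelium, 28 higher and 4 lower in stroma, 6 and 37 in plasma-like, 22 and 2 in goblet-like and 31 and 2 in crypt-like cells, 1 higher in the stromal division by Hspa1a, and reversed Dnajb1 in plasma-like cells to -1.01. A limit of 10% mitochondrial UMIs gave 5 members lower in plasma-like cells, reversing Dnaja1 (0.050), Dnajc9 (0.32), Hsp90aa1 (0.89) and Hsph1 (0.33), 4 lower in goblet-like cells, where Dnajc9 was at -0.13, and 4 higher and 5 lower in crypt-like cells, where Hspb6 was at -0.12. Absorptive-like cells of colon and rectum fell out there, which left 3 libraries. It also gave 3 higher in the B-like division, 0 in the stromal one, and, for crypt-like cells, gaps in 0 members toward the small and 1 toward the large intestine.

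Keeping every barcode gave 22 higher in goblet-like cells, 1 in the crypt-like and 1 in the stromal division, and 1 gap in the large intestine in crypt-like cells. No filter on low counts gave 2 in the B-like division. Dividing by a UMI of either Hspa1a or Hspa1b, with both left out, gave 0 in all 3 classes. At least 1000 genes per cell gave 1 in the crypt-like division, DESeq2 gave 0 in the stromal one, and keeping doublets or pairing within the library alone gave 1. Without the replicate block, that is without the library pairing the classes, 0 members were called in the crypt-like and stromal divisions, and no other count moved by 1.5 times. For the gap between small and large intestine, B-like cells had 1 member higher in the small as a mean over cells or without the ileum and 1 in the large with TMM factors. Crypt-like cells had 0 higher in the small with a 4-fold gap, 200 UMIs or a mean over cells, and in the large 0 with a 4-fold gap and 1 as a mean over cells or with doublets kept.

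Leaving out each library in turn gave 15 to 20 members higher and 11 to 14 lower in epithelium, 15 to 17 and 11 to 15 in stroma, 18 to 20 and 11 to 13 in plasma-like, 8 to 14 and 1 to 11 in goblet-like, and 15 to 25 and 8 to 13 in crypt-like cells. The divisions by Hspa1a gave 1 to 1 higher in B-like, 1 to 3 in crypt-like and 0 to 2 in stromal cells. The stromal division by at least 2 Hspa1a UMIs and the division of T-like cells could not be fitted.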

Other observations

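A pair of small classes was present in enough cells in 1 library each and had no comparison of its own. Their cells were part of the epithelial sums set against immune cells. Tuft-like cells of the duodenum held a summed 4086 CPM of the 8 stress-induced members, above the crypt-like cells of that library at 3529 CPM. Paneth-like cells of the ileum held 264 CPM, near plasma-like cells of the same library at 253 CPM. Both are values of 1 library without an error.

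Among B-like cells the cluster of 183 cells with the germinal-centre genes Rgs13 and Mef2b differed by segment. Immunoglobulin took 0.953%, 4.12% and 2.90% of its UMIs in duodenum, jejunum and ileum, 17.5% in the colon and 41.7% in the rectum. Its Hsp90b1 level followed the same order of regions, at 363, 578 and 563 CPM in the small intestine against 1827 and 4416 CPM in colon and rectum.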
